A study of Mus musculus with 10 samples.

Results

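Peptides that reach class I molecules at the cell surface are cleaved in the cytosol, carried into the endoplasmic reticulum (ER), trimmed there and fitted onto newly made class I chains. The 8 genes described here encode the machinery of that route inside the ER: the transporter subunits Tap1 (ENSMUSG00000037321) and Tap2 (ENSMUSG00000024339), tapasin (Tapbp, ENSMUSG00000024308) and its relative TAPBPR (Tapbpl, ENSMUSG00000038213), the trimming peptidase Erap1 (ENSMUSG00000021583), and the chaperones calreticulin (Calr, ENSMUSG00000003814), calnexin (Canx, ENSMUSG00000020368) and ERp57 (Pdia3, ENSMUSG00000027248). They were taken by symbol from a table of 77175 entries, and all 8 were among the 15526 genes that passed a filter on low counts and were tested. RNA was sequenced in a mouse melanoma line, B16-F10 (WT in what follows), and in B16-F10-OVA (OVA). The OVA line carries a lentiviral vector, labelled pLV[Exp]-Neo-EF1A>{ovalbumin}, in which by its name the EF1A promoter drives ovalbumin beside a neomycin resistance gene. Each line was either left untreated (2 libraries) or kept in interferon gamma (IFN-γ) at 50 ng/ml for 24 h (3 libraries), and the stated aim was to ask whether the lines respond differently. The vector is present in both OVA groups and absent from both WT groups, so ovalbumin, the resistance gene and any other difference between the lines cannot be told apart.

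The loading route works in a fixed order. TAP1 and TAP2 pair to form a pump in the ER membrane that uses ATP to bring cytosolic peptides into the ER, and ERAP1 shortens peptides that are too long at their amino end. Tapasin bridges the pump to an empty class I molecule and is held in a disulfide bond with ERp57, calreticulin grips the sugar of the class I heavy chain, calnexin folds the chain earlier on, and TAPBPR edits peptides away from the pump. Tapasin, TAPBPR and the transporter serve class I, whereas the 3 chaperones help fold many glycoproteins. Promoters of genes that answer IFN-γ are known for GAS elements and for interferon-stimulated response elements (ISRE), which IRF factors bind. NLRC5 is a regulator of class I genes. ER chaperone genes are known for another promoter element, the ER stress element (ERSE), in which a CCAAT box stands at a fixed distance from CCACG.

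Promoter windows from 250 bases before to 50 bases after the start were found in RefSeq (GRCm38.p6, a build other than the GRCm39 of the counts) for 6 of the 8 genes, all but Tap2 and Tapbpl. They were searched on both strands for GAS (TTC and GAA with 3 bases between), ISRE (GAAA and GAAA with 2 bases between), ERSE (CCAAT and CCACG with 9 bases between) and the bare CCAAT box, which every ERSE match contains. Of all 32851 RefSeq mouse windows, 8.3% held the GAS letters, 3.44% the ISRE, 0.119% (39 windows) the ERSE and 37.4% a CCAAT box. The windows of the induced Tapbp and the chaperone Pdia3, not printed, were alike in holding CCAAT boxes only. The 4 windows printed below belong to an induced pair and a pair of chaperones. They run 5′ to 3′ on each gene's own strand, with capitals for the CCAAT box in Tap1, the ISRE match in Erap1 and the ERSE matches in Calr and Canx.
Tap1 (chr17:34187306-34187605, plus strand): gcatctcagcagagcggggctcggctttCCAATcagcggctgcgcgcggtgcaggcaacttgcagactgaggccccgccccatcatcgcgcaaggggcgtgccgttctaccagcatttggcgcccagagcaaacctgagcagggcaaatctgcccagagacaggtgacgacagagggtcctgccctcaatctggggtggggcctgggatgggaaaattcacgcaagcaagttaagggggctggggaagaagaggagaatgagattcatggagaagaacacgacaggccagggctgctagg
Erap1 (chr13:74639603-74639902, plus strand): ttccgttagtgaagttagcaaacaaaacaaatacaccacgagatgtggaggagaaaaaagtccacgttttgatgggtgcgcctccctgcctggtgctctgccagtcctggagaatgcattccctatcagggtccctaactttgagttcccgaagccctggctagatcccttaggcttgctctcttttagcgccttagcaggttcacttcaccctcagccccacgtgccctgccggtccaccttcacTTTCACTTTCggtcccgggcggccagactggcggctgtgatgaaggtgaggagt
Calr (chr8:84846882-84847181, minus strand): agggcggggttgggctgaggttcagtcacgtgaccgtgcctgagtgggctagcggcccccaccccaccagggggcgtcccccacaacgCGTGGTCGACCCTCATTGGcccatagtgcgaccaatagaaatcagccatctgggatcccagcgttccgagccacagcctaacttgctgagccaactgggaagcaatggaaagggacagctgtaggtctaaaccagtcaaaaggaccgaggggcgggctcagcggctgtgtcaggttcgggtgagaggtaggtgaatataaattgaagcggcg
Canx (chr11:50325624-50325923, minus strand): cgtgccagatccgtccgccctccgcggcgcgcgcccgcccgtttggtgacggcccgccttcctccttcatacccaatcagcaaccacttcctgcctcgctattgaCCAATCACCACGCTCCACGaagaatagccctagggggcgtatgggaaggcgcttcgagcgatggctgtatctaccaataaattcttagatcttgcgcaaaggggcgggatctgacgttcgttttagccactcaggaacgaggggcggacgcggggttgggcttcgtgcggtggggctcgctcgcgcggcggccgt
The ERSE stood in the windows of Calr, in reverse from 162 bases before the start, and Canx, forward from 145 bases before it. Of the 6 windows, the Erap1 one held an ISRE match, in reverse from 4 bases before the start. No GAS letters were found in any of the 6, and the windows of Tapbp (chr17:33919228-33919527, plus strand) and Pdia3 (chr2:121413652-121413951, plus strand) held CCAAT boxes only. These matches are letters in a short window and were not tested for binding.

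Library totals ran from 17728722 to 19642533 counts. The 8 genes took 0.401 to 0.421% of all counts in the 4 untreated libraries and 0.501 to 0.509% in the 6 treated ones. The 7 melanocyte markers checked (Pmel, Tyr, Tyrp1, Dct, Mlana, Mitf and Sox10) were all present, summing to between 23096 and 24500 CPM (counts scaled per 1000000 reads) in every library. Of the T cell markers, Cd3e, Cd2 and Ptprc had no counts in any library, and the 7 together reached 1.23 to 1.89 CPM in untreated and 3.09 to 4.07 CPM in treated libraries, where no single count of a marker exceeded 72. Macrophage markers summed to at most 4.12 CPM with Cd14 at 0, dendritic cell markers to at most 0.271 CPM with Itgax and Flt3 at 0, and fibroblast, epithelial and endothelial markers to at most 7.62, 1.57 and 0.952 CPM. The part of these traces in the results was not tested. One protocol text mentions tissue, but cell line and cell type are given for all 10 samples, which are taken as cultured cells.

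IFN-γ split the 8 genes by role in both lines. Tap1, Tap2, Tapbp, Tapbpl and Erap1 rose, by 27.4-fold to 329-fold in WT and 20.8-fold to 224-fold in OVA, and Calr, Canx and Pdia3 fell, by 0.11 to 0.35 on the log2 scale in WT and by 0.26 to 0.45 in OVA. By edgeR's quasi-likelihood test with Benjamini-Hochberg adjustment (threshold 0.05), 5 of 8 were called higher and 3 of 8 lower in each line. Among all tested genes, 24.5% were called higher and 19.7% lower in WT, and 25.9% and 22.9% in OVA. The treated and untreated libraries of a line did not overlap for any of the 8, whereas 33% of tested genes were higher without overlap and 29% lower in WT, and 34% and 31.7% in OVA. The median log2 change over the 8 was 4.93 in WT, where the median of all tested genes was 0.011, and 4.66 in OVA, where it was 0.0018. In bulk RNA, a change in the share of cells that express a gene and a change in RNA per cell cannot be told apart. Nothing in the labels says whether the libraries of a group came from separate cultures. The p-values therefore reflect at most counting error and the spread between these libraries, which may be technical. For the 5 induced genes, the SEs and intervals of the IFN-γ responses equal counting error and hold no further spread between libraries. The same holds for their response differences and their untreated differences between the lines.

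**Figure D1:**
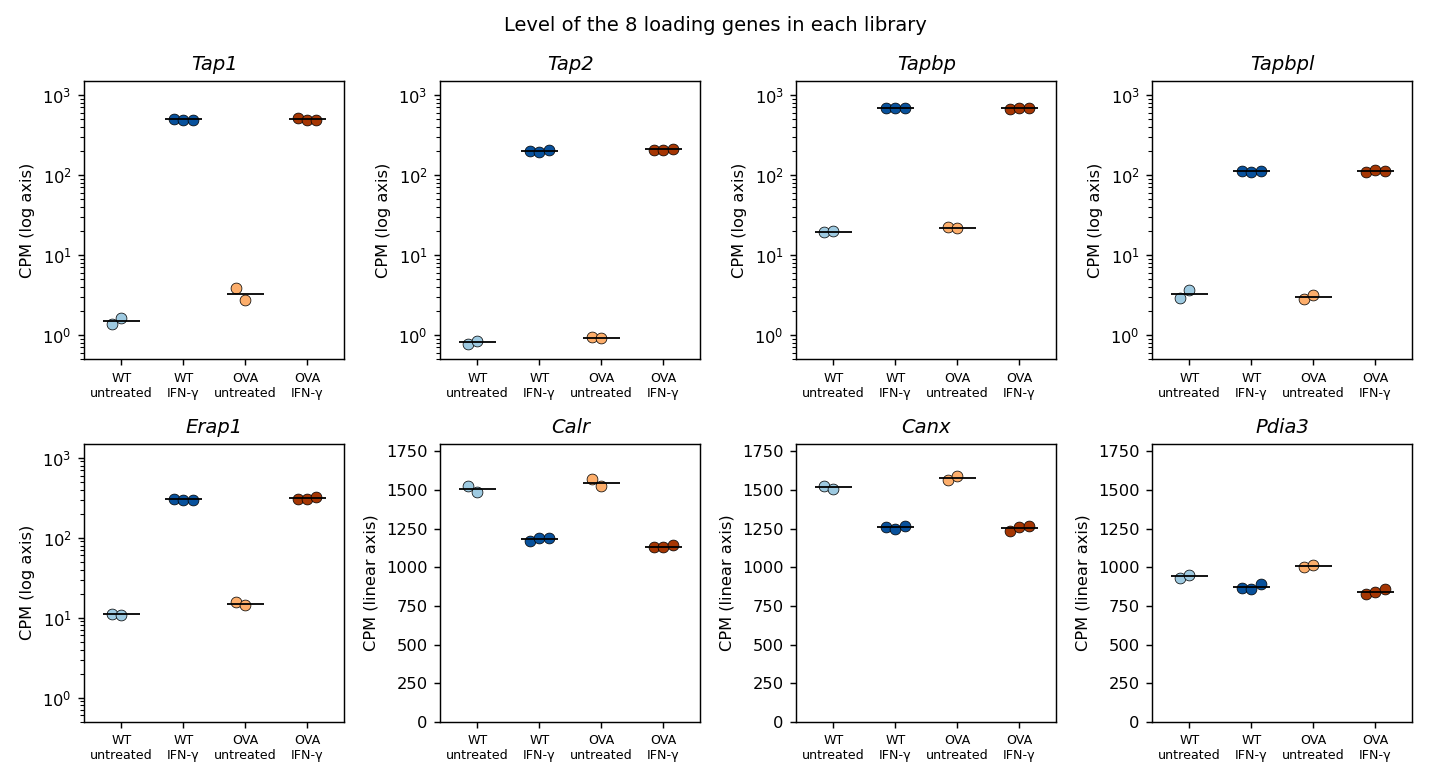
Level of each of the 8 genes in every library, in TMM-scaled CPM, with a log axis for the 5 induced genes and a linear axis from 0 for the 3 chaperones; points are libraries (2 untreated and 3 IFN-γ per line) and bars are group means. Tap1 goes from 1.38 to 3.83 CPM in the untreated libraries to 493 to 512 CPM in the treated ones, while Calr goes from 1487 to 1570.3 CPM down to 1128 to 1187 CPM.

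The transporter genes rose by the largest folds among the 8, from the lowest untreated levels per kb of exon. Tap1 stood at 1.38 and 1.62 CPM in the untreated WT libraries and at 501, 495 and 493 CPM in the treated ones. In OVA it stood at 3.83 and 2.76 CPM untreated and at 512, 494 and 495 CPM treated. Both lines therefore reached levels that overlapped after IFN-γ, from starting levels that did not overlap. The log2 change was 8.36 (SE 0.20, edgeR adjusted p = 6.96e-22) in WT, 329-fold, and 7.24 (SE 0.13, adjusted p = 8.35e-22) in OVA, 152-fold. Untreated Tap1 rested on few reads, 25 and 29 counts in WT and 70 and 51 in OVA. Tap2 stood at 0.773 and 0.840 CPM in untreated WT and at 198, 194 and 209 CPM in treated WT. Its OVA values were 0.931 and 0.920 CPM untreated and 207, 209 and 212 CPM treated. Every untreated library lay under 1 CPM, and the treated libraries of the lines overlapped. The log2 change of Tap2 was 7.94 (SE 0.27, edgeR adjusted p = 8.85e-21), 246-fold, in WT and 7.81 (SE 0.25, adjusted p = 7.14e-21), 224-fold, in OVA, with 14 to 17 counts in each untreated library.

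Tap1 shares 212 exonic bases with Psmb9, an immunoproteasome subunit gene on the opposite strand (GENCODE M21). The labels do not say whether the libraries are stranded, so it is not known whether reads in those bases were assigned to the right gene. Psmb9 held 4 counts over the 2 untreated WT libraries and 3 over the 2 untreated OVA libraries, against a mean of 142 CPM in treated WT and 141.5 CPM in treated OVA. Tap2 shares 533 exonic bases with the noncoding Gm15821 on the opposite strand, which had no counts untreated and 80 and 54 counts over the treated WT and OVA libraries. Those counts compare with 11408 and 11209 for Tap2 in the same groups.

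Tapasin was the most abundant induced member. Tapbp stood at 19.3 and 19.998 CPM in untreated WT and at 687, 684 and 695 CPM in treated WT. In OVA it stood at 22.3 and 21.8 CPM untreated and at 676, 682 and 686 CPM treated. The groups did not overlap within a line, and the lines overlapped after treatment. Its log2 change was 5.13 (SE 0.055, edgeR adjusted p = 1.34e-22), 35.1-fold, in WT and 4.95 (SE 0.051, adjusted p = 1.52e-22), 30.9-fold, in OVA. Tapbpl, whose product edits peptides outside the transporter complex, stood at 2.87 and 3.70 CPM in untreated WT and at 113, 108 and 112 CPM in treated WT. In OVA the values were 2.85 and 3.14 CPM untreated and 109.8, 115 and 112 CPM treated. The 2 lines overlapped in both conditions. The change was 5.08 (SE 0.13, edgeR adjusted p = 8.06e-19), 33.8-fold, in WT and 5.23 (SE 0.14, adjusted p = 6.14e-19), 37.4-fold, in OVA. Tapbp shares 904 exonic bases with the antisense gene Gm19412, which itself had at most 77 counts in a library, and 149 with Zbtb22 on its own strand, which stood at 17.2 to 19.9 CPM in the group means.

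Erap1, the only trimming peptidase among the members, stood at 11.2 and 10.9 CPM in untreated WT and at 309, 299 and 299 CPM in treated WT. Its OVA values were 15.7 and 14.3 CPM untreated and 308, 308 and 319 CPM treated. All OVA untreated values were above the WT ones, and the treated values of the lines overlapped. The log2 change was 4.78 (SE 0.073, edgeR adjusted p = 5.28e-21), 27.4-fold, in WT and 4.38 (SE 0.063, adjusted p = 7.68e-21), 20.8-fold, in OVA. Erap1 shares 834 exonic bases with Cast, the calpastatin gene on the opposite strand, which rose by 0.49 and 0.47 on the log2 scale. Cast stood at 45.7 CPM in untreated WT, and it is likewise not known whether reads in the shared bases were assigned to the right gene.

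The chaperones were abundant without treatment and fell. Calr stood at 1526 and 1487 CPM in untreated WT and at 1167.5, 1187 and 1187 CPM in treated WT. In OVA it stood at 1570.3 and 1523 CPM untreated and at 1129, 1128 and 1143.5 CPM treated. Every untreated library lay above every treated one. The change was -0.35 (SE 0.026, edgeR adjusted p = 5.21e-09) in WT and -0.45 (SE 0.026, adjusted p = 1.81e-10) in OVA. Canx stood at 1528 and 1509.7 CPM in untreated WT and at 1259, 1250.5 and 1267 CPM in treated WT. Its OVA values were 1568 and 1590.8 CPM untreated and 1233, 1262.5 and 1266 CPM treated. Canx fell without overlap in both lines, by 0.27 (SE 0.025, edgeR adjusted p = 9.63e-08) on the log2 scale in WT and by 0.33 (SE 0.025, adjusted p = 5.99e-09) in OVA. Pdia3 moved least. It stood at 931 and 952 CPM in untreated WT and at 863, 861 and 895 CPM in treated WT, and in OVA at 999 and 1012 CPM untreated and 824, 839 and 860.1 CPM treated. The change was -0.11 (SE 0.029, edgeR adjusted p = 0.00509) in WT and -0.26 (SE 0.029, adjusted p = 9.74e-07) in OVA. Without the untreated WT replicate 2, the WT change of Pdia3 was -0.091 with an edgeR adjusted p of 0.0723.

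**Figure D2:**
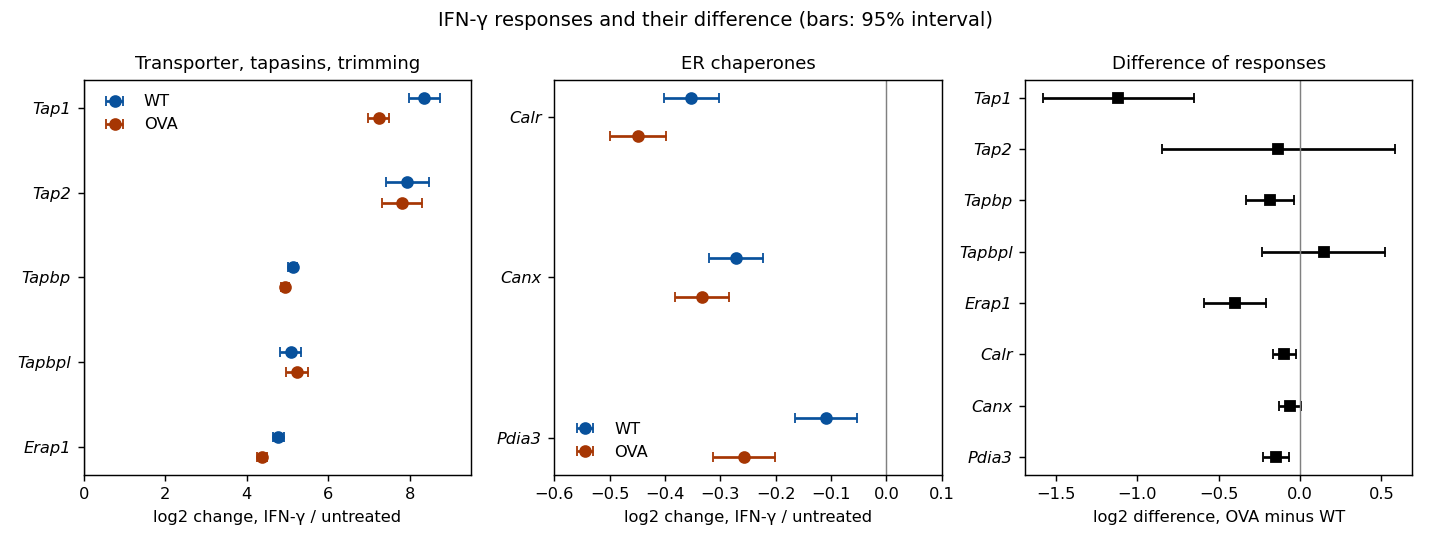
Log2 change with IFN-γ for each gene in WT and OVA (left and middle) and the difference of the changes, OVA minus WT (right), with 95% intervals from the edgeR fit. Of the differences, that of Tap1 at -1.12 is the one past the adjusted threshold.

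The lines were then compared directly. For the difference of the IFN-γ responses, 1 of 8 genes was called, lower in OVA, where 0.264% of all tested genes were called lower and 0.0773% higher. Tap1 rose less in OVA by 1.12 on the log2 scale (95% interval -1.58 to -0.65, edgeR adjusted p = 0.0156). The interval of the difference for Erap1 was -0.59 to -0.21 around -0.40 (edgeR adjusted p = 0.0597), and for Tapbp -0.33 to -0.036 around -0.18 (adjusted p = 0.325). Neither was called after adjustment. The estimate for Tap2, the partner of Tap1, was -0.13 with a wide interval, -0.85 to 0.58, and that for Tapbpl was 0.15 with an interval of -0.23 to 0.52. The chaperone differences were -0.096 for Calr, -0.062 for Canx and -0.15 for Pdia3, none called. The Tap1 call was lost without OVA untreated replicate 1 (-0.86, edgeR adjusted p = 0.319), without WT untreated replicate 1 (-1.005, adjusted p = 0.199) and without WT untreated replicate 2 (-1.24, adjusted p = 0.0735). It was also lost with limma-voom (-1.09, adjusted p = 0.119), while DESeq2 kept it and called Erap1 and Pdia3 as well. The interval of the Tap1 difference equals counting error, with 54 and 121 untreated counts in all, and holds no further spread between libraries. In the untreated groups of 2, the SD of Tap1 was 23.1% of the mean in OVA, against 12.9% from counting. In WT it was 11.5%, against 19.2% from counting.

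Without treatment, 2 of 8 genes were called higher in OVA and 0 lower, against 2.98% and 2.55% of all tested genes. These were Tap1, 2.19-fold higher with a log2 difference of 1.13 (SE 0.24, edgeR adjusted p = 0.00170), and Erap1, with a difference of 0.44 (SE 0.095, adjusted p = 0.00291). The mean level of Tap1 was 1.502 ± 0.173 CPM in WT and 3.30 ± 0.761 CPM in OVA (SD, n = 2 each), and that of Erap1 was 11.01 ± 0.202 and 15.0 ± 0.980 CPM. Both calls were lost without OVA untreated replicate 1, the library with the highest Tap1 and Erap1 values (0.88, edgeR adjusted p = 0.0692, and 0.38, adjusted p = 0.0517). In 6 of 8 genes both OVA values lay above both WT values, a pattern seen in 26.4% of tested genes. The other two, Tapbpl and Calr, overlapped. The response difference and this comparison use the same 4 untreated libraries and are not independent.

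After IFN-γ no member was called between the lines by edgeR, DESeq2 or limma-voom, while 14.4% of all tested genes were called by edgeR. At an unadjusted p under 0.05 there was 1, Calr, with a log2 difference of -0.058 (interval -0.10 to -0.013, edgeR adjusted p = 0.105). The intervals of the treated difference for the 5 induced genes reached from -0.0602 for Tapbp to 0.124 for Tap2. Their estimates ran from -0.014 for Tapbp to 0.064 for Tap2. The Tap2 interval, built from its SE and not from the F test, was 0.0032 to 0.124. Its unadjusted edgeR p was 0.0555 (adjusted 0.186). For Calr and Pdia3 the OVA libraries lay below the WT libraries without overlap, and 16% of tested genes did the same. Treated means of Tap1 were 496 ± 3.97 CPM in WT and 500.5 ± 10.2 CPM in OVA (SD, n = 3 each). Those of Tapbp were 688 ± 5.60 and 681 ± 5.02 CPM.

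Levels of different genes were set side by side as CPM per kb of exon. In untreated WT the order was Calr (523 CPM per kb), Canx (324), Pdia3 (299.9), Tapbp (5.41), Erap1 (1.51), Tapbpl (1.40), Tap1 (0.274) and Tap2 (0.213). The libraries of Erap1 and Tapbpl overlapped, and no other neighbours in that order did. After IFN-γ the WT order was Calr (409.8 CPM per kb), Pdia3 (278), Canx (268), Tapbp (189.7), Tap1 (90.6), Tap2 (52.9), Tapbpl (47.3) and Erap1 (41.5), with no overlap between neighbours. The gap between the chaperones and the induced genes thus narrowed on this scale. OVA had the same order in each condition, with no overlap of neighbours untreated and with Pdia3 (267.9) and Canx (267.1) overlapping after IFN-γ. The choice of length matters for Tap1, whose exons cover 5476 bases in all but 2953 in its principal transcript. With the principal transcript the treated WT level of Tap1 was 168 CPM per kb, and Erap1 (53.6) then stood above Tapbpl (47.3).

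**Figure D3:**
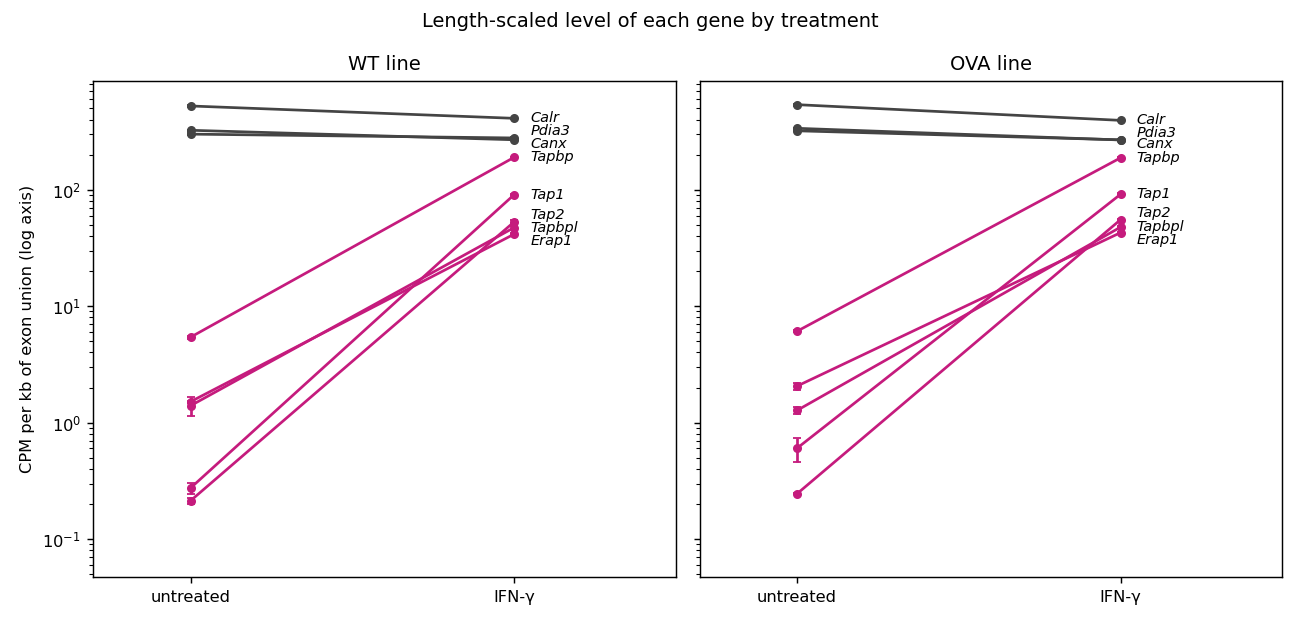
Mean level of each gene in CPM per kb of exon (log axis) without and with IFN-γ in WT (left) and OVA (right); bars are the SD over libraries, pink marks the 5 genes that rose and grey the 3 that fell. The induced genes lie between 0.213 and 5.41 in untreated WT and between 41.5 and 189.7 after IFN-γ, below the chaperones in both.

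Genes whose products work as partners were compared as ratios within each library, which no library scaling can move. Each ratio was tested with an exact two-sided permutation test with labels permuted within lines, which cannot give a p below 0.01, and adjusted over the 5 pairs. Tapasin and ERp57 are disulfide partners, and the Tapbp to Pdia3 ratio of counts per kb went from 0.0180 to 0.682 in WT and from 0.0190 to 0.701 in OVA. The change of 5.22 on the log2 scale gave an exact permutation p of 0.01 (adjusted 0.0167), higher in 6 of 6 treated libraries. Since Tapbp rose and Pdia3 fell without overlap in both lines, this test adds nothing to their single-gene results. The Tap1 to Erap1 ratio per kb went from 0.181 to 2.18 in WT and from 0.289 to 2.13 in OVA. Transport and trimming genes thus exchanged order, with a log2 change of 3.24 (exact permutation p = 0.01, adjusted 0.0167). The Calr to Canx ratio of counts was 0.999 and 0.985 in untreated WT, and 0.928, 0.949 and 0.937 in treated WT. In OVA it was 1.00 and 0.958 untreated and 0.916, 0.894 and 0.904 treated. Calr thus fell slightly more than Canx, by 0.098 on the log2 scale (exact permutation p = 0.01, adjusted 0.0167), without overlap in either line. The Tapbp to Tapbpl ratio changed by -0.12 (exact permutation p = 0.21, adjusted 0.263), a change that did not pass the threshold.

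**Figure D4:**
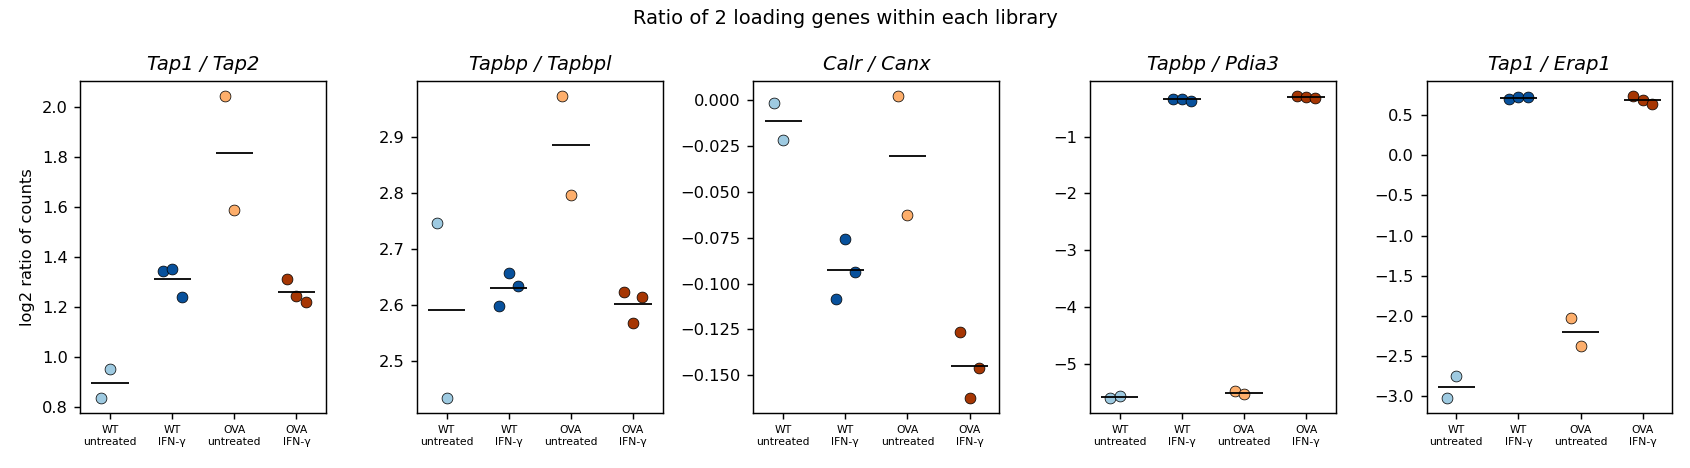
Log2 ratio of the counts of 2 partner genes in each library, by line and treatment; points are libraries, bars are group means, and each panel has its own scale that does not start at 0. The Tap1 to Tap2 ratio is lower in treated than untreated OVA and higher in treated than untreated WT. Its treated log2 means are 1.31 in WT and 1.26 in OVA.

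The transporter subunits had no common shift. The Tap1 to Tap2 ratio of counts was 1.79 and 1.93 in untreated WT and 2.53, 2.55 and 2.36 in treated WT. In OVA it was 4.12 and 3.00 untreated and 2.48, 2.37 and 2.33 treated. WT moved up and OVA moved down without overlap, to values that overlapped after treatment, and over both lines the change was -0.069 (exact permutation p = 0.79, adjusted 0.79). Summed over libraries, the ratio was 1.86 in untreated WT (exact 95% interval 1.16 to 3.03), 3.56 in untreated OVA (2.42 to 5.37), 2.48 in treated WT (2.43 to 2.53) and 2.39 in treated OVA (2.34 to 2.45). These intervals cover counting error only. Per kb of exon the treated ratios were 1.71 and 1.65, and with principal transcript lengths 2.89 and 2.79.

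The chaperones were then set beside other genes of ER folding and the glycan cycle, a list of 20 of which 19 were tested. In WT, 14 of 19 fell and 0 rose, and in OVA 15 of 19 fell and 0 rose, with medians of -0.19 and -0.28. Of all tested genes, 19.7% were called lower and 24.5% higher in WT, and 22.9% and 25.9% in OVA. Their medians were 0.011 and 0.0018. DESeq2 and limma-voom also called 0 higher in each line, and at an unadjusted p under 0.05 edgeR had 0 higher in WT and 1 in OVA. The largest falls in WT were those of Ero1b, an ER oxidase (by 0.64 on the log2 scale), Sdf2l1, a cofactor of BiP (0.51), Hspa5, which encodes BiP itself (0.41), and Erp29, a thioredoxin-fold chaperone (0.40). In OVA they were Ero1b (0.86), Hspa5 (0.54), Pdia6, a disulfide isomerase (0.47), and Sdf2l1 (0.46). Hspa5 went from a mean of 2155 to 1616 CPM in WT and from 2203 to 1519 CPM in OVA. The members' falls lie inside the range of this list, with Calr among the larger. Pdia3 was among the smaller in WT, and in OVA its change of -0.26 lay near the list median of -0.28. Uggt1, whose product returns misfolded glycoproteins to calreticulin and calnexin, fell by 0.19 and 0.30, and Prkcsh, a glucosidase subunit, was not called (0.040 in WT and 0.046 in OVA). The ERSE letters seen in Calr and Canx were in the windows of 5 of the 18 listed genes with one, Hspa5, Hsp90b1, Pdia6, Ero1b and Calr4. The first 4 of these fell in both lines and Calr4, with a mean of at most 1.79 CPM in any group, was not called. Genes outside these 5, such as Sdf2l1, Erp29 and Uggt1, also fell in both lines. So did Pdia3, whose window held CCAAT boxes but no ERSE. A link between these letters and the falls was not tested.

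**Figure D5:**
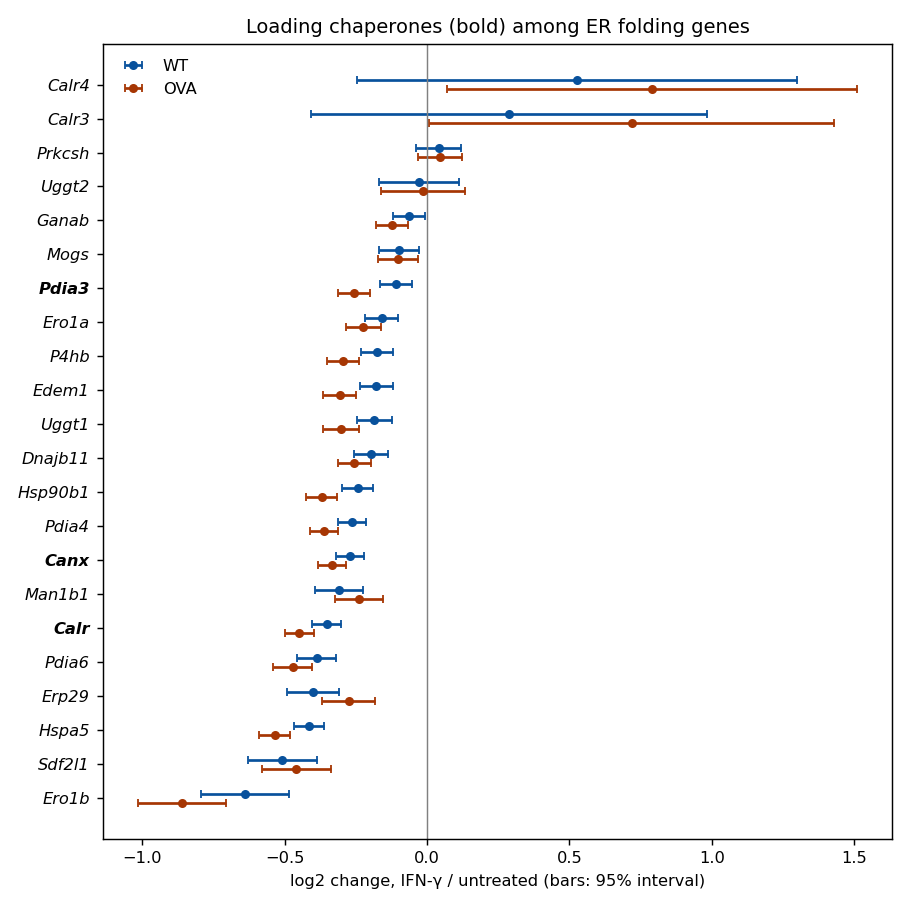
Log2 change with IFN-γ (95% intervals) of the 3 loading chaperones, in bold, and the 19 tested ER folding genes in WT and OVA. Between the weakly expressed Calr4 and Calr3 at the top and Ero1b at the bottom (-0.64 and -0.86), Calr, Canx and Pdia3 lie at -0.35, -0.27 and -0.11 in WT.

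Among 8 other peptidases that act on class I peptides, 3 rose and 3 fell in WT, and 3 rose and 2 fell in OVA, beside the 24.5% and 19.7% of all tested genes in WT and 25.9% and 22.9% in OVA. Over the alternatives, the number that fell in WT ran from 0 (without WT untreated replicate 1) to 4. The number that rose in OVA ran from 1 (Lap3 alone, with DESeq2, with upper-quartile scaling and without OVA untreated replicate 1 or 2) to 3. Lap3, leucine aminopeptidase, rose by 2.45 (SE 0.040) in WT and 2.48 (SE 0.040) in OVA, from 53.7 to 294 CPM and from 54.0 to 302 CPM. Tpp2, a cytosolic tripeptidyl peptidase, rose by 0.16 and 0.11, its OVA call being lost in 5 of 19 alternatives. Npepps fell by 0.16 and 0.28. Lnpep, the insulin-regulated aminopeptidase of endosomes, rose by 0.19 in WT and was not called in OVA (-0.052). Blmh, bleomycin hydrolase, rose by 0.12 in OVA, a call also lost in 5 of 19 alternatives, and was not called in WT (-0.061). The difference of the IFN-γ responses was called for none of the 8 peptidases by edgeR, DESeq2 or limma-voom, 3 had an unadjusted p under 0.05 with edgeR, and 1 was called lower in OVA with no filter and with the replicate block. Between the treated lines, edgeR called Blmh higher in OVA and Dpp9, Lnpep and Npepps lower, and DESeq2 called 0 higher and 2 lower.

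Beside 24.5% of all tested genes called higher in WT and 25.9% in OVA, 6 of 7 class I chain genes rose in each line. Of the proteasome side, 5 of 6 rose in each line. The exception, Psme3, was not called in WT (-0.0056) and fell by 0.11 in OVA, a call lost without OVA untreated replicate 2. Psmb10, a catalytic subunit of the immunoproteasome, went from 6.26 to 281 CPM in WT and from 7.54 to 297 CPM in OVA. H2-T23, which encodes the nonclassical Qa-1, went from 1.11 to 255 CPM in WT and from 0.816 to 252 CPM in OVA. H2-Q7, named because it was the class I gene that was not called, stayed between 0.945 and 1.40 CPM in all group means. Of 8 regulators, 6 rose in each line, beside the same shares of all tested genes. The exceptions were Rfxap and Rfxank, which join with Rfx5 in one DNA-binding complex. Rfx5 itself rose by 1.06 (SE 0.077) and 0.95 (SE 0.074). Nlrc5 had means of 0.0556 and 0.245 CPM untreated and 341 and 329 CPM treated. Of 8 genes for ER entry and export, 2 rose and 3 fell in WT, and 1 rose and 3 fell in OVA, beside the shares of all tested genes given for the peptidases. The gene that rose in OVA, Sec61g, an ER translocon subunit, lost that call in 9 of 19 alternatives, DESeq2 and limma-voom among them. The number that fell in WT ran from 2 to 5 over the alternatives, and in OVA from 1 (without OVA untreated replicate 1) to 4. Abcb9, a lysosomal relative of the transporter genes, fell by 1.34 (SE 0.53, edgeR adjusted p = 0.0438) and 1.76 (SE 0.52, adjusted p = 0.00731), at group means of at most 1.28 CPM. Its WT call was lost in 7 of 18 alternatives, with a change of -0.59 (adjusted p = 0.550) without WT untreated replicate 1, and its OVA call in 1. Sec61a1, the channel of the ER translocon, fell by 0.13 and 0.16.

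The genes nearest in pattern to each member were taken from 10470 tested genes with a mean of at least 5 CPM, by Pearson's r of log2 CPM over the 10 libraries, as a description. All of these libraries share the split into untreated and treated, so high r is common: 309 to 356 genes had r above 0.99 with each induced member. Tap1 was nearest to Nlrc5 (r = 0.9995), Slfn8 and Erap1. Nlrc5 had only 2 counts over the untreated WT libraries and 9 over the untreated OVA libraries. Its untreated log2 CPM, taken with a prior count of 2, therefore depends on that prior count. Tap2 was nearest to Tapbp (r = 0.9999), Parp12 and Tgtp2, and the nearest to Tapbp included Tap2 and Parp12. Tapbpl was nearest to Gm12185, H2-T23 and Gbp5, and Erap1 to Slfn8, Oasl2 and Irgm1. The chaperones had fewer such genes, 51 for Calr, 34 for Canx and 1 for Pdia3. Calr was nearest to Lmnb1 (r = 0.9991), Ryk and Eif4ebp2, Canx to Gm40652 (r = 0.9959), Limch1 and Tdg, and Pdia3 to Birc5 (r = 0.9904), Ddx46 and Mboat7.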

How the data were processed

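RNA was measured by bulk sequencing of poly-A selected libraries from B16-F10 and B16-F10-OVA cells. The authors deposited raw read counts per Ensembl gene in 1 table for the 10 libraries. HISAT2 2.0.5, featureCounts 1.6.0 and GRCm39 are named in the submitters' processing notes. The annotation release, strand setting and treatment of reads with several matches were not given in the sources used here. Values of overlapping genes and near copies are therefore uncertain.

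Columns were matched to groups by the labels. Counts were fitted with edgeR 4.0.16 in R 4.3.3 (TMM factors, filterByExpr by group, quasi-likelihood F test, two-sided), all 10 libraries with 4 group means, and p adjusted by Benjamini-Hochberg over 15526 tested genes at a threshold of 0.05. Totals were 17728722 to 19642533 counts per library, so genes with few counts carry wide errors. Each SE is a Wald error of the log2 change from that fit, never below counting error. Levels are CPM with TMM factors. Level per length used exon lengths of GENCODE M21 (GRCm38) by gene ID, as did neighbours and overlaps. Promoters came from RefSeq GRCm38.p6.

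The 8 genes, 6 gene lists and markers were chosen with earlier results of these data known. Named genes were the 8, up to 4 called genes per list, comparison and direction by size (the text gives a part), the 3 nearest patterns and the neighbours on each side, of which 2 genes are not reported here. H2-Q7, Prkcsh, Rfxap, Rfxank, Psme3 and Calr4 were named after their values were seen. Alternatives were DESeq2 1.42.0, limma-voom (limma 3.58.1), other scalings, other filters, a replicate block, fewer groups and each library left out. The pipeline was tested on simulated data.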

Additional observations from a re-analysis of the deposited data

Results flagged for a closer look

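The Tap1 response differed between the lines by a test of the difference itself, with a log2 difference of -1.12 (OVA minus WT, edgeR adjusted p = 0.0156). The treated means were 496 and 500.5 CPM and the untreated means 1.502 and 3.30 CPM. Leaving out any of 3 of the 4 untreated libraries ended the call.

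The treated minus untreated log2 ratio of Tap1 to Tap2 was 0.42 in WT and -0.56 in OVA. The treated ratios lay above the untreated ones in WT and below them in OVA, without overlap. The difference between the lines was not tested. Summed over libraries, the untreated WT ratio rested on 29 Tap2 counts, and its interval for counting error, 1.16 to 3.03, held the treated 2.48. In OVA the untreated interval was 2.42 to 5.37 and the treated ratio 2.39 (2.34 to 2.45). Groups of 2 and 3 libraries are too small to look for single libraries that stand apart.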

How the results depend on the processing

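Of 752 values of the members' log2 changes under the alternatives, 727 kept their direction and their side of the threshold, 9 gained a call, 7 lost one and 9 changed direction. The 9 were differences between the lines that were not called in either setting. Leaving out 1 library gave Tapbpl values of -0.046 to 0.32 for the difference of responses and -0.30 to 0.060 untreated. After IFN-γ it gave -0.0035 to 0.023 for Tap1, -0.0057 to 0.031 for Tapbpl and -0.011 to 0.0078 for Canx, and scaling by library size alone gave 0.0092 for Tapbp and 0.018 for Canx. The numbers of members called in the 2 IFN-γ responses did not move beyond 1.5 times. For the difference of the responses, with 1 member called, DESeq2 called 3, limma-voom 0 and the fit with no filter 2, and leaving out 1 library gave 0 to 2. Erap1 gained that call with DESeq2 (-0.40, adjusted p = 0.0219) and no filter (adjusted p = 0.00688), and Pdia3 with DESeq2 (-0.14, adjusted p = 0.0294). The cause of these changes was not tested. For OVA against WT untreated, leaving out 1 library gave 0 to 2 members, and after IFN-γ 0 to 1, Tap2 without WT IFN-γ replicate 3 (0.097, edgeR adjusted p = 0.0328). Per kb of principal transcript, Tap1 over Tap2 after IFN-γ was 2.89 in WT and 2.79 in OVA. Tested in WT alone, the ratio changes were -0.081 for Calr over Canx, 5.24 for Tapbp over Pdia3 and 3.59 for Tap1 over Erap1, and in OVA alone -0.11, 5.21 and 2.88. None of these passed, since 2 against 3 libraries cannot go below an exact permutation p of 0.1. Leaving out 1 library gave Tapbp over Tapbpl changes from -0.20 to -0.044, the lowest, without WT untreated replicate 2, passing the threshold. The uncalled Tap1 over Tap2 change also turned sign, to 0.028 with a prior count of 2 and 0.42 in WT alone, and ran from -0.18 to 0.045 with 1 library left out, and that of Tapbp over Tapbpl was 0.039 in WT alone.

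Whether the same replicate number marks shared samples was not settled. Deviations of same-numbered libraries from their group means correlated between -0.0721 and 0.0349, and 1 of 6 treated libraries correlated best with its own number. In groups of 2 the deviations mirror each other, so this check cannot exclude shared samples. With the replicate block, 3 members were called for the difference of responses (Tap1, Erap1 and Pdia3, the last 2 with adjusted p = 0.0358), and over all genes 165 against 53. Pdia3 was also called untreated with the block (0.095, adjusted p = 0.0309). Over all genes, DESeq2 called 23 higher and 86 lower for that difference against 12 and 41, 274 and 281 for untreated lines against 463 and 396, and 553 and 890 for treated lines against 988 and 1241. Upper-quartile scaling gave 2763 higher and 4039 lower in WT against 3803 and 3055, and 3167 and 4318 in OVA against 4017 and 3563, and moved the median of all genes to -0.061 in WT. Scaling by library size alone gave 1450 and 967 for treated lines and 14 and 27 for the difference. The ER folding list had 13 to 15 genes lower in WT and 14 or 15 in OVA under every alternative run. With 14 to 70 untreated counts per library, counting error limits the precision of the Tap1 and Tap2 fold changes.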

Other observations

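The nearest protein-coding genes beside each member (GENCODE M21 order), leaving out genes that overlap it, did not follow one direction. Beside Tap1 and Tap2, Psmb8, an immunoproteasome subunit gene, had no counts in the untreated WT libraries and a mean of 85.2 CPM in treated WT, and H2-DMb1, a class II accessory gene, rose by 4.63 (SE 0.19) on the log2 scale in WT and 4.76 (SE 0.19) in OVA. H2-Ob, on the other side of Tap2, had no counts in any group. Beside Tapbp, Daxx, a histone chaperone gene, rose by 2.15 (SE 0.061) and 2.19 (SE 0.061), from 29.3 to 131 CPM in WT, and Rgl2 fell by 0.29 (SE 0.069) and 0.32 (SE 0.069).

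Beside Calr, which fell, Farsa, a tRNA synthetase subunit gene, rose by 0.31 (SE 0.056) in WT and 0.26 (SE 0.055) in OVA. Beside Canx, Maml1 was not called (0.042 in WT and -0.0043 in OVA) and Cby3 had no counts in any group. Beside Tapbpl, Mrpl51 was not called (0.084 and 0.083). Vamp1, which overlaps Tapbpl on the opposite strand without shared exonic bases, rose by 0.69 and 0.70. Beside Erap1, Zfp825 was called in OVA (0.47, SE 0.13) and not in WT (0.30, SE 0.13), and the difference between the lines was not called by edgeR (0.17, SE 0.19).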
